A study of Mus musculus with 16 samples.

Results

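The hypoxia-inducible factor (HIF) subunit genes were followed across the 8 groups of this study: Hif1a, Epas1 and Hif3a, which code for the 3 alpha subunits, and Arnt and Arnt2, which code for 2 of their beta partners. They were taken by gene symbol, under a rule that does not use their values, though earlier results of these data were known. All 5 were found among the 21924 protein-coding genes of the deposited table. All 5 passed the filter on low values. The cells were germline stem (GS) cells of the mouse, spermatogonial stem cells kept in culture, grown with GDNF and FGF2 on feeder cells (mouse embryonic fibroblasts). There were 16 RNA-seq libraries, 2 for each group. Wild type DBA/2 cells stayed at 20% oxygen, under which the lines were established, or moved to 1% oxygen. Cells on a 129 x C57BL/6 mixed background were kept at 20% or 1% oxygen as Hif1a wild type or with the label Hif1a KO. The latter had been given AxCANCre, an adenovirus that carries the Cre recombinase, when the low-oxygen treatment began. C57BL/6 cells, Top1mt wild type or Top1mt KO, were kept at 1% oxygen only. Top1mt codes for the topoisomerase of mitochondria. The series text gives 2 days at 1% oxygen. At 1%, "2d" stands in the names of the Top1mt line libraries and "6d" in those of the Hif1a line libraries, with no meaning given. The DBA/2 names hold no such mark. The time at 1% may therefore differ between the lines compared below. Whether wild type cells received a control virus, the part of Hif1a that Cre removes, the age of the animals and how many animals or cultures stand behind a line are not given in the sources used here. Feeder cells were not said to be removed before lysis.

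HIF is a dimer of an alpha and a beta subunit that binds DNA at short ACGTG or GCGTG sequences. In well-oxygenated cells the HIF-1alpha and HIF-2alpha proteins are hydroxylated by prolyl hydroxylases, marked by the VHL ubiquitin ligase and destroyed, and in low oxygen they escape this and switch on genes of glycolysis, blood vessel growth and mitochondrial turnover. Control of HIF therefore acts mainly on the protein, and the values here are of transcripts. Hif1a is broadly expressed, Epas1 (HIF-2alpha) is best known from endothelium, lung and kidney, Hif3a gives several splice forms of which some hold the other alpha subunits in check, Arnt (HIF-1beta) also partners the dioxin receptor Ahr, and Arnt2 is best known from neurons.

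The stretches upstream of the start sites are shown because the members differ in the HIF core motifs found there. Of the members, 4 had an entry in the RefSeq promoter table (GRCm38.p6), and Epas1 had none. Each sequence is the 250 bases before the RefSeq start, 5′ to 3′ on the gene's own strand, with every ACGTG or GCGTG on either strand in capitals (a match on the other strand reads CACGT or CACGC).
Hif1a, chr12:73907617-73907866, plus strand: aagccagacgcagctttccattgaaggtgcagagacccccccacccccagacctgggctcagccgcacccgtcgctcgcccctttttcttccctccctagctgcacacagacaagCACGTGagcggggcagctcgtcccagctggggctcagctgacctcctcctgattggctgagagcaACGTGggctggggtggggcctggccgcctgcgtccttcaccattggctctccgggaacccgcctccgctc
Hif3a, chr7:17062428-17062677, minus strand: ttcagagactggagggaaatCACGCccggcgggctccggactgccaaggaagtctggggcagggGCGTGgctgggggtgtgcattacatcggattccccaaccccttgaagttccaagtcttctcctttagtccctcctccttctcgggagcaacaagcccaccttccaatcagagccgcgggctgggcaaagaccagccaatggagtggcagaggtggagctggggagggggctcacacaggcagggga
Arnt, chr3:95434140-95434389, plus strand: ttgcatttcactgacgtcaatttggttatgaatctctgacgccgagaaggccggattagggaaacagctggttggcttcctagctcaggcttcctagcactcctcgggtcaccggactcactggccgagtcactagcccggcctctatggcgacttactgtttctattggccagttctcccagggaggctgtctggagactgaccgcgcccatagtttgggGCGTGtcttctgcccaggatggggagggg
In the Hif1a stretch ACGTG was found 3 times, at 134 and 70 bases before the start on the gene's strand and at 135 on the other, the first and last of which overlap as CACGTG. The Hif3a stretch held 2 GCGTG matches, at 230 bases before the start on the other strand and 186 on the gene's strand. The Arnt stretch held 1, at 29 bases before the start. The Arnt2 stretch held neither motif. Among 32851 promoters of the same length, 16.6% held ACGTG, 28.2% GCGTG and 38.6% at least 1 of both, so such matches are common and no binding was measured here. The RefSeq start of Hif1a lies within the span of the gene in the GENCODE annotation, which lists 5 transcripts for it, and the counts sum over all of them.

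On GRCm38 (mm10) the genes lie at chr12:73901375-73947530 on the plus strand (Hif1a), chr17:86753700-86833410 on the plus strand (Epas1), chr7:17031507-17062427 on the minus strand (Hif3a), chr3:95434388-95497240 on the plus strand (Arnt) and chr7:84246278-84410176 on the minus strand (Arnt2). The antisense gene Gm15283 shares 330 exon bases with Hif1a, and Gm30873 shares 214 with Arnt2. The libraries were stranded, but how strand was set in the counting is unstated, so reads of these pairs may not be separated. Gm49321, which shares 148 exon bases with Hif1a on the same strand, was at 0 CPM in every library.

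Depth on protein-coding genes ran from 11942104 to 25659895 reads a library, and the lowest member value, Hif3a in a library labelled Hif1a KO at 1%, still rested on 169 reads. Top1mt itself stood at 32.8 and 34.8 CPM (reads per 1000000 reads on protein-coding genes) in its wild type and 9.99 and 10.96 CPM in its KO, lower in both KO libraries. Hif1a itself, the other targeted gene, held 139 to 618 CPM in the libraries labelled Hif1a KO and 116 to 250.7 CPM in Hif1a wild type, so its RNA was not lower under the KO label. A count over the whole gene does not tell whether a deleted exon is gone, and these libraries are called by their label throughout. The cultures were mixtures. The 20 feeder markers, none of them at 0, summed to 6181 to 8620 CPM in DBA/2 libraries, 10866 to 18055 CPM in the Hif1a line at 20%, 27616 to 34925 CPM in Hif1a wild type at 1%, 58831 to 60579 CPM in libraries labelled Hif1a KO at 1%, 20768 to 20778 CPM in Top1mt wild type and 38081 to 38914 CPM in Top1mt KO. The 16 germ cell markers, none at 0, summed to a mean of 5138 CPM in DBA/2 at 20% and 1674 CPM in libraries labelled Hif1a KO at 1%. In such bulk RNA, fewer cells of a type and less RNA per cell cannot be told apart. The labels name no batch. The names of the Hif1a line libraries at 1% carry a "B" that those at 20% lack, with no meaning given. In that line this mark goes with oxygen, so they cannot be told apart. The numbers 17 and 18 stand in library names of both DBA/2 and Hif1a wild type at 1%. Strain goes with line, so a strain and a line cannot be told apart.

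Hif1a was the member that moved most. Its values were 118 and 101 CPM in DBA/2 cells at 20% oxygen and 113 and 104 CPM at 1%. In Hif1a wild type cells they were 116 and 118 CPM at 20% and 250.7 CPM in both libraries at 1%. In the libraries labelled Hif1a KO they were 139 and 142 CPM at 20% and 618 and 593 CPM at 1%. The DBA/2 libraries overlapped between oxygen levels, while both Hif1a line genotypes stood apart at 1%. The Top1mt line, at 1% only, held 154 and 148 CPM in wild type and 173.8 CPM in both KO libraries, which did not overlap.

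At 1% oxygen Hif1a did not pass the test in DBA/2 cells, with a log2 fold change of CPM + 1 of -0.01 ± 0.06 (SE), a 95% interval (here and below not adjusted for the number of genes) of -0.13 to 0.11 and an adjusted p of 0.924 by limma. It rose 2.13-fold in Hif1a wild type cells (log2 1.09 ± 0.06, adjusted p = 9.03e-12 by limma) and 4.29-fold in the libraries labelled Hif1a KO (2.10 ± 0.06, adjusted p = 1.73e-16 by limma). The response was larger in libraries labelled Hif1a KO than in wild type by 1.01 ± 0.08 on the log2 scale (adjusted p = 2.41e-08 by limma), and larger in Hif1a wild type than in DBA/2 by 1.10 ± 0.08 (adjusted p = 3.69e-09 by limma). Against Hif1a wild type, the libraries labelled Hif1a KO held 1.20-fold more Hif1a at 20% (0.26 ± 0.06, adjusted p = 0.00344 by limma) and 2.41-fold more at 1% (1.27 ± 0.06, adjusted p = 1.04e-12 by limma). Both differences were upward in the libraries labelled KO. In the Top1mt line Hif1a was 1.15-fold higher in KO (0.20 ± 0.06, adjusted p = 0.00521 by limma). Without the second Top1mt wild type library this was 0.18 with an adjusted p of 0.053 by limma, in a range of 0.000534 to 0.053 over all alternatives.

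From highest to lowest, Hif1a was ordered labelled Hif1a KO at 1%, Hif1a wild type at 1%, Top1mt KO, Top1mt wild type, labelled Hif1a KO at 20%, Hif1a wild type at 20%, DBA/2 at 20% and DBA/2 at 1%. No neighbours among the first 6 overlapped, and the last 3 groups overlapped in a chain. Hif1a wild type did not pass against DBA/2 at 20% (log2 0.11, interval -0.02 to 0.23), though without the first DBA/2 library the difference was 0.21 and passed. Among the 3 wild type lines at 1% oxygen, Hif1a was 2.30-fold higher in Hif1a wild type than in DBA/2 (1.20 ± 0.06, adjusted p = 1.29e-12 by limma), 1.39-fold higher in Top1mt wild type than in DBA/2 (0.47 ± 0.06, adjusted p = 9.64e-07 by limma) and 1.66-fold higher in Hif1a wild type than in Top1mt wild type (0.73 ± 0.06, adjusted p = 2.79e-09 by limma).

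**Figure D1:**
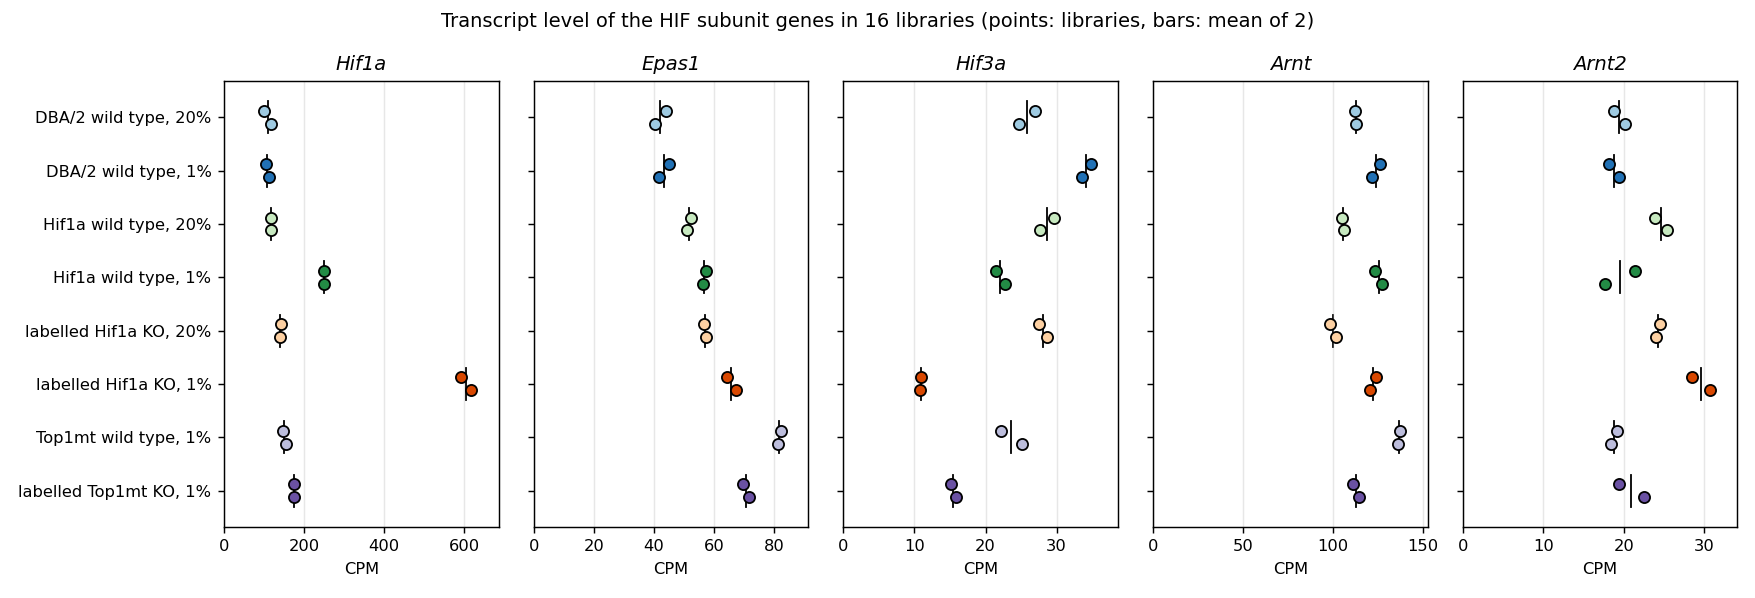
Transcript level of each HIF subunit gene in CPM (horizontal axes, each from 0) in the 8 groups (rows). Points are libraries and bars the mean of 2. Hif1a reaches 593 to 618 CPM in the libraries labelled Hif1a KO at 1% oxygen, where Hif3a is at its lowest, 10.8 to 10.9 CPM.

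In CPM, Epas1 separated the 3 lines, whose libraries did not overlap in it at any oxygen level or genotype. With median-of-ratios scaling this does not hold, as labelled Hif1a KO at 1% then overlaps the Top1mt line. It stood at 40.4 and 43.9 CPM in DBA/2 cells at 20% and 41.7 and 45.03 CPM at 1%, which overlapped. Hif1a wild type cells held 50.9 and 52.4 CPM at 20% and 56.3 and 57.4 CPM at 1%, and libraries labelled Hif1a KO 57.4 and 56.7 CPM at 20% and 67.2 and 64.5 CPM at 1%. Top1mt wild type held the most, 81.3 and 82.3 CPM, and Top1mt KO 71.6 and 69.6 CPM. With oxygen, Epas1 rose in the libraries labelled Hif1a KO (1.15-fold, 0.20 ± 0.06, adjusted p = 0.00352 by limma), and by more with other scalings (0.56 with median of ratios, 0.53 with edgeR and 0.57 with DESeq2). In Hif1a wild type cells the change was 0.14 (interval 0.01 to 0.26, adjusted p = 0.0571 by limma) and passed the test in 5 of the alternative settings, and in DBA/2 it was 0.04 (interval -0.08 to 0.16). The difference between these responses did not pass on the CPM scale (0.07 ± 0.08 for labelled Hif1a KO minus wild type, adjusted p = 0.499 by limma). With libraries scaled by median of ratios it was 0.34 and passed.

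Between wild type lines at 1%, Epas1 was 1.87-fold higher in Top1mt wild type than in DBA/2 (0.90 ± 0.06, adjusted p = 1.89e-10 by limma) and 1.31-fold higher in Hif1a wild type than in DBA/2 (0.38 ± 0.06, adjusted p = 1.15e-05 by limma). At 20% it was also higher in Hif1a wild type than in DBA/2 (0.29 ± 0.06, adjusted p = 0.000432 by limma). At 1% the libraries labelled Hif1a KO held more than wild type (0.21 ± 0.06, adjusted p = 0.00299 by limma; 0.49 with median of ratios), while Top1mt KO held less than its wild type (-0.21 ± 0.06, adjusted p = 0.0043 by limma; -0.16 with DESeq2, which did not pass). At 20% the labelled Hif1a KO libraries did not pass against wild type (0.14, interval 0.02 to 0.26, adjusted p = 0.0873 by limma). In the order of the groups, labelled Hif1a KO at 20% overlapped Hif1a wild type at 1%, and the 2 DBA/2 groups overlapped. The 7 endothelial markers, none at 0, summed to only 26.8 to 65.3 CPM over the groups. They were highest in Top1mt wild type and lowest in labelled Hif1a KO at 1%, where Epas1 in CPM was highest and number 3. In DBA/2, where Epas1 was lowest, they summed to 57.8 CPM at 20% and 63.5 CPM at 1%. Their part in the Epas1 values was not tested.

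Hif3a moved in opposite directions with oxygen in the 2 wild type lines that were kept at both levels. It stood at 24.7 and 27.0 CPM in DBA/2 cells at 20% and 33.5 and 34.8 CPM at 1%, with 1% above 20%. Hif1a wild type cells held 27.7 and 29.7 CPM at 20% and 22.7 and 21.4 CPM at 1%, with 1% below 20%. Libraries labelled Hif1a KO held 28.6 and 27.5 CPM at 20% and 10.84 and 10.87 CPM at 1%, again lower at 1%. Top1mt wild type held 25.1 and 22.2 CPM and Top1mt KO 15.8 and 15.2 CPM, without overlap. Hif3a rose 1.31-fold at 1% oxygen in DBA/2 (0.39 ± 0.08, adjusted p = 0.000442 by limma), was 1.29-fold lower in Hif1a wild type (-0.37 ± 0.08, adjusted p = 0.000927 by limma) and 2.45-fold lower in libraries labelled Hif1a KO (-1.29 ± 0.08, adjusted p = 1.85e-11 by limma). The responses differed by -0.76 ± 0.12 between Hif1a wild type and DBA/2 (adjusted p = 3.22e-05 by limma) and by -0.93 ± 0.12 between labelled Hif1a KO and wild type (adjusted p = 2.07e-06 by limma).

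At 20% oxygen Hif3a did not pass between labelled Hif1a KO and wild type (-0.03, interval -0.20 to 0.14) or between Hif1a wild type and DBA/2 (0.15, interval -0.03 to 0.32). At 1% it was 1.94-fold lower in labelled Hif1a KO than in wild type (-0.96 ± 0.08, adjusted p = 2.06e-09 by limma) and 1.49-fold lower in Top1mt KO than in its wild type (-0.58 ± 0.08, adjusted p = 5.82e-06 by limma). DBA/2 at 1% held the most, 1.53-fold above Hif1a wild type at 1% and 1.43-fold above Top1mt wild type, and the difference of those 2 did not pass (-0.09, interval -0.27 to 0.08). In the order of the groups, Hif1a wild type and labelled Hif1a KO at 20% overlapped, as did DBA/2 at 20%, Top1mt wild type and Hif1a wild type at 1% in a chain.

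Arnt, the common partner, moved within a narrow range, from 98.6 to 138 CPM over all 16 libraries. It stood at 113 CPM in both DBA/2 libraries at 20% and 122 and 126 CPM at 1%, at 106 and 105 CPM in Hif1a wild type at 20% and 127 and 124 CPM at 1%, and at 102 and 98.6 CPM in libraries labelled Hif1a KO at 20% and 121 and 124 CPM at 1%. In each of these 3 pairs both libraries at 1% were above both at 20%. Top1mt wild type held 136 and 138 CPM and Top1mt KO 114 and 112 CPM. At 1% oxygen Arnt rose 1.19-fold in Hif1a wild type (0.25 ± 0.05, adjusted p = 0.000148 by limma) and also rose in labelled Hif1a KO (0.29 ± 0.05, adjusted p = 8.61e-06 by limma; 0.65 with median of ratios, 0.61 with edgeR and 0.66 with DESeq2). The difference of these 2 responses did not pass on the CPM scale (0.04, adjusted p = 0.601 by limma), while with median of ratios it was 0.31 and passed (adjusted p = 0.000315 by limma). In DBA/2 the change was 0.13 ± 0.05 (adjusted p = 0.0156 by limma), and the call was lost with median-of-ratios scaling, edgeR and DESeq2 (0.10 in each) and without either library at 20% or the second at 1% (adjusted p of 0.00698 to 0.125 over all alternatives). Arnt was 1.21-fold lower in Top1mt KO than in its wild type (-0.28 ± 0.05, adjusted p = 3.08e-05 by limma).

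Between labelled Hif1a KO and wild type, Arnt did not pass at 20% (-0.08, interval -0.17 to 0.02) or at 1% on the CPM scale (-0.03, interval -0.13 to 0.06). At 1% the direction flips with the scaling: it was higher by 0.25 with median of ratios, 0.22 with edgeR and 0.25 with DESeq2, all of which passed, with adjusted p of 4.27e-05 to 0.851 over all alternatives. Between wild type lines at 1%, Top1mt wild type stood above DBA/2 (0.14 ± 0.05, adjusted p = 0.0103 by limma; 0.12 and 0.14 without the first DBA/2 or the second Top1mt wild type library, which did not pass), and the difference between Hif1a wild type and DBA/2 did not pass on the CPM scale (0.02, interval -0.08 to 0.11; 0.14 with median of ratios, which passed). Hif1a wild type, DBA/2 and labelled Hif1a KO at 1% overlapped in a chain, as did Top1mt KO and DBA/2 at 20%.

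Arnt2 moved in opposite directions with oxygen in the 2 genotypes of the Hif1a line. It stood at 20.2 and 18.8 CPM in DBA/2 cells at 20% and 19.4 and 18.2 CPM at 1%, which overlapped, and at 25.4 and 23.9 CPM in Hif1a wild type at 20% and 17.6 and 21.3 CPM at 1%. Libraries labelled Hif1a KO held 23.9 and 24.6 CPM at 20% and 30.7 and 28.5 CPM at 1%, the highest group. Top1mt wild type held 18.4 and 19.1 CPM and Top1mt KO 22.5 and 19.4 CPM. At 1% oxygen Arnt2 was 1.26-fold lower in Hif1a wild type (-0.33 ± 0.09, adjusted p = 0.00654 by limma), a call lost with edgeR (-0.23), DESeq2 (-0.24), without the first library at 20% (-0.28) and without the first at 1% (-0.20), with adjusted p of 0.00114 to 0.119 over all alternatives. In labelled Hif1a KO it was 1.21-fold higher at 1% (0.28 ± 0.09, adjusted p = 0.0117 by limma), lost without the first library at 20% (0.26) or the first at 1% (0.22), and larger with median of ratios (0.63), edgeR (0.60) and DESeq2 (0.65). The responses of the 2 genotypes differed by 0.60 ± 0.13 (adjusted p = 0.000747 by limma). At 1% oxygen the libraries labelled Hif1a KO held 1.50-fold more Arnt2 than wild type (0.58 ± 0.09, adjusted p = 1.29e-05 by limma). In DBA/2 (-0.05, interval -0.25 to 0.15) and between Top1mt KO and wild type (0.15, interval -0.05 to 0.35) it did not pass. At 20% Arnt2 was 1.25-fold higher in Hif1a wild type than in DBA/2 (0.33 ± 0.09, adjusted p = 0.00781 by limma), a call lost with the replicate number as a block (0.27) and without the second DBA/2 (0.28) or the first Hif1a wild type library (0.28). Apart from labelled Hif1a KO at 1%, which stood above all others, and the 2 overlapping Hif1a line groups at 20%, the remaining 5 groups overlapped in a chain.

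**Figure D2:**
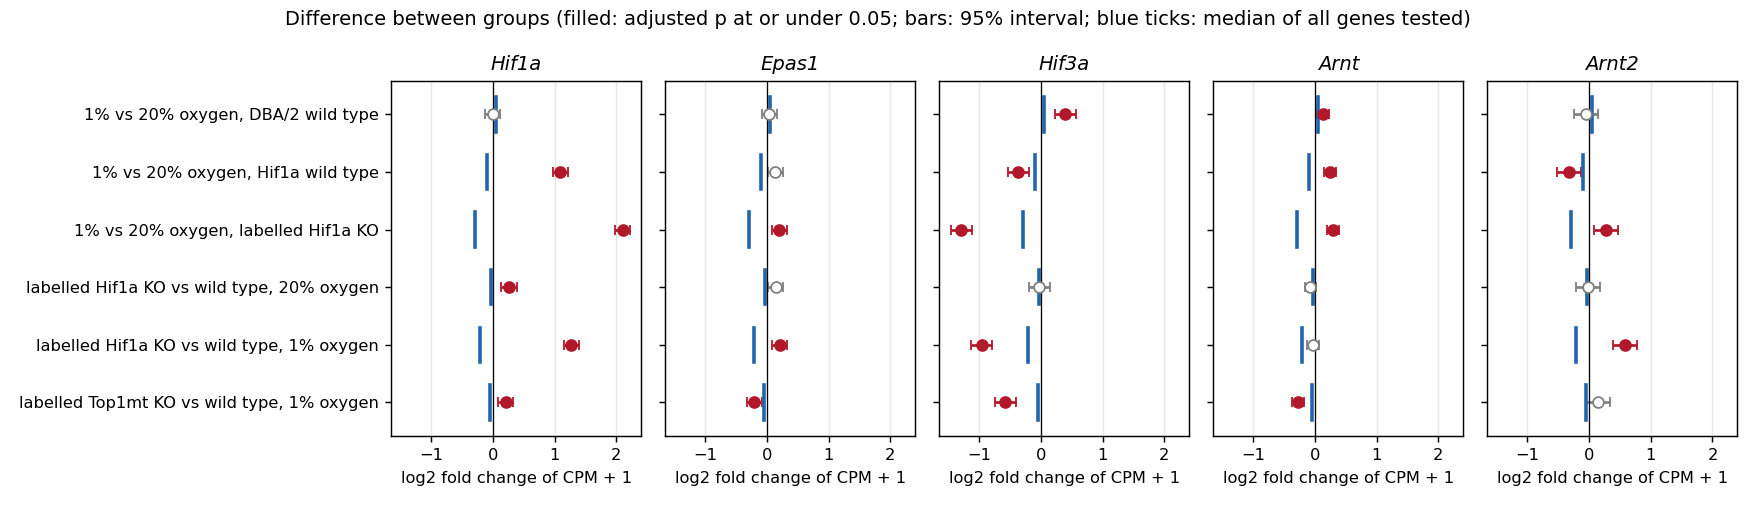
Log2 fold change of CPM + 1 (horizontal axis) for each gene in 6 comparisons (rows). Points are limma estimates, filled where the adjusted p is at or under 0.05, bars are 95% intervals before adjustment and blue ticks the median of all 14841 genes tested. Hif1a reaches 2.10 and Hif3a -1.29 for oxygen in the libraries labelled Hif1a KO.

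The count of members called has to be read against how often any gene was called. With 1% against 20% oxygen, 2 of 5 members were called in DBA/2 where 57.4% of the 14841 genes tested were, 4 of 5 in Hif1a wild type (53.1%) and 5 of 5 in labelled Hif1a KO (79.9%). For labelled Hif1a KO against wild type, 1 of 5 was called at 20% (22.4%) and 4 of 5 at 1% (77.4%), and for Top1mt KO 4 of 5 (58.4%). For the differences of responses, 3 of 5 were called for labelled Hif1a KO minus wild type (58.0%) and 2 of 5 for Hif1a wild type minus DBA/2 (46.0%). Scaled by median of ratios these were 5 and 4 members. The shares in brackets are of the CPM scale, and those with median of ratios are not given here. Between wild type lines, 2 of 5 were called for Hif1a wild type against DBA/2 at 20% (48.9%) and 3 of 5 at 1% (63.1%), 4 of 5 for Top1mt wild type against DBA/2 (61.8%) and 3 of 5 for Hif1a wild type against Top1mt wild type (58.1%). None of these counts is read as a result about the family.

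The median of all genes was itself off 0 on the CPM scale, at -0.29 for oxygen in labelled Hif1a KO, -0.21 for labelled Hif1a KO against wild type at 1%, -0.09 for oxygen in Hif1a wild type, -0.17 for the difference of responses between labelled Hif1a KO and wild type and -0.13 for that between Hif1a wild type and DBA/2. Median-of-ratios scaling brings the medians of these comparisons to between -0.01 and 0.07. Of the genes called, 34.8% were higher at 1% in Hif1a wild type, 31.6% in labelled Hif1a KO and 36.6% for labelled Hif1a KO against wild type at 1%, and with median of ratios 49.7%, 53.0% and 54.2%. Relative to that median, the oxygen change of Hif1a was 1.18 in Hif1a wild type and 2.39 in labelled Hif1a KO, that of Hif3a -0.27 and -1.002, that of Epas1 0.23 and 0.49, that of Arnt 0.34 and 0.58 and that of Arnt2 -0.24 and 0.57. For labelled Hif1a KO against wild type at 1%, the values relative to the median were 1.48 for Hif1a, 0.42 for Epas1, -0.75 for Hif3a, 0.17 for Arnt and 0.79 for Arnt2. Hif1a and Hif3a kept their directions in these comparisons.

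Since both sides of a ratio within a library share its scaling, the make-up of the family was also taken per kilobase of merged exon. Hif1a made up 39.7% ± 3.02 (SD, n = 2) of the summed CPM per kilobase of the 5 genes in DBA/2 at 20% and 37.4% ± 1.98 at 1%. In Hif1a wild type its share was 39.9% ± 0.0715 at 20% and 57.3% ± 0.00806 at 1%, and in labelled Hif1a KO 44.2% ± 0.715 and 75.9% ± 0.390. It was 40.4% ± 0.678 in Top1mt wild type and 48.1% ± 0.665 in Top1mt KO. The DBA/2 libraries overlapped between oxygen levels, and the Hif1a line libraries did not. The ratio of Hif1a to Arnt per kilobase went from 1.51 ± 0.0218 to 2.71 ± 0.0594 in Hif1a wild type and from 1.90 ± 0.0721 to 6.71 ± 0.324 in labelled Hif1a KO, while in DBA/2 it was 1.31 ± 0.138 and 1.19 ± 0.0979. Hif3a stood at 0.210 ± 0.0354 of Hif1a in DBA/2 at 20% and 0.277 ± 0.0232 at 1%, and at 0.0158 ± 0.000497 of Hif1a in labelled Hif1a KO at 1%. The 3 alpha genes together outweighed Arnt plus Arnt2 by 1.74 ± 0.0548 in DBA/2 at 1% and by 6.06 ± 0.202 in labelled Hif1a KO at 1%. Per kilobase, Arnt2 was the lowest member in the DBA/2 groups, the Hif1a wild type groups, labelled Hif1a KO at 20% and Top1mt wild type, and Hif3a was lowest in labelled Hif1a KO at 1% and Top1mt KO. Levels between genes depend on the length used: Arnt measures 8007 bases over all merged exons and 4325 in its longest transcript. With the longest transcripts Arnt stood above Hif1a per kilobase in both DBA/2 groups, and with merged exons below it, and the Hif1a share in Hif1a wild type was 37.0% at 20% and 53.6% at 1%.

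**Figure D3:**
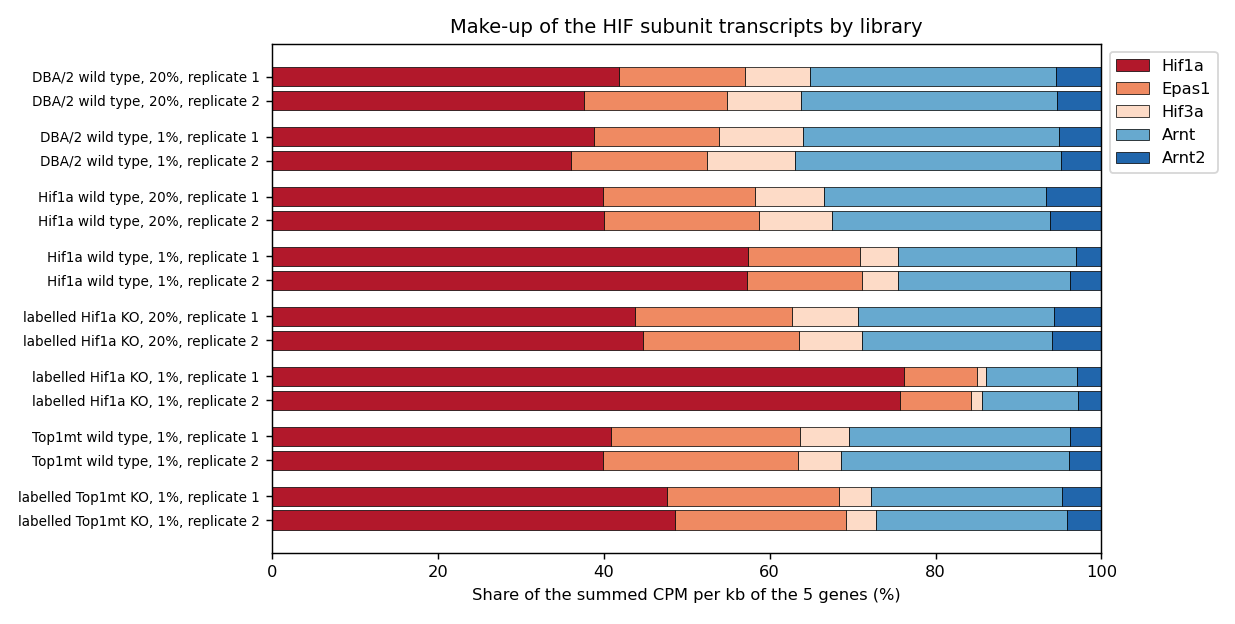
Share of each gene in the summed CPM per kilobase of the 5 HIF subunit genes (horizontal axis, percent, from 0 to 100) in each of the 16 libraries (rows). Hif1a takes 36.0% to 41.9% in the DBA/2 libraries and 75.7% to 76.2% in those labelled Hif1a KO at 1% oxygen.

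The order of the groups by Hif1a was close to that by the feeder markers. Ordered by their summed CPM, the groups stood in the same order as by Hif1a, with 1 exchange. Top1mt KO and Hif1a wild type at 1% change places. The feeder sum was 38498 CPM with Hif1a at 174 CPM in Top1mt KO. In Hif1a wild type at 1% these means were 31270 and 251 CPM. The lowest groups by Hif1a, Hif1a wild type at 20% and both DBA/2 groups, overlapped in it. In DBA/2 cells, where Hif1a did not pass with oxygen, 1 of the 20 markers was higher and 14 were lower at 1%. In Hif1a wild type 17 were higher and 1 lower, in labelled Hif1a KO 19 were higher and 0 lower, and for labelled Hif1a KO against wild type 18 were higher at 20% and 20 at 1%, with 0 lower in both. In Top1mt KO all 20 were higher. Of all genes tested, 31.8% were higher and 25.5% lower at 1% in DBA/2. These shares were 18.4% and 34.6% in Hif1a wild type, and 25.2% and 54.7% in labelled Hif1a KO. For labelled Hif1a KO against wild type, 12.9% of all genes were higher at 20% and 28.3% at 1%. In Top1mt KO 25.2% were higher. Hif3a stood in the opposite order to the feeder sum, save that DBA/2 at 20% stood 4 from the top, below both Hif1a line groups at 20%. The part of the feeder share in these values was not tested. In CPM, Arnt and Epas1 did not follow the feeder order: both were highest in Top1mt wild type, number 4 by feeder sum. That top place depends on the scaling. With median of ratios, labelled Hif1a KO at 1%, the highest by feeder sum, stands above Top1mt wild type in Arnt and overlaps it in Epas1. Of other cells, the 5 Sertoli markers summed to 26.0 to 56.3 CPM and the 5 leukocyte markers to 18.3 to 35.6 CPM over the groups, with none at 0. The 4 Leydig markers summed to 4.72 to 6.64 CPM, with Hsd3b1 or Insl3 at 0 in 4 groups.

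**Figure D4:**
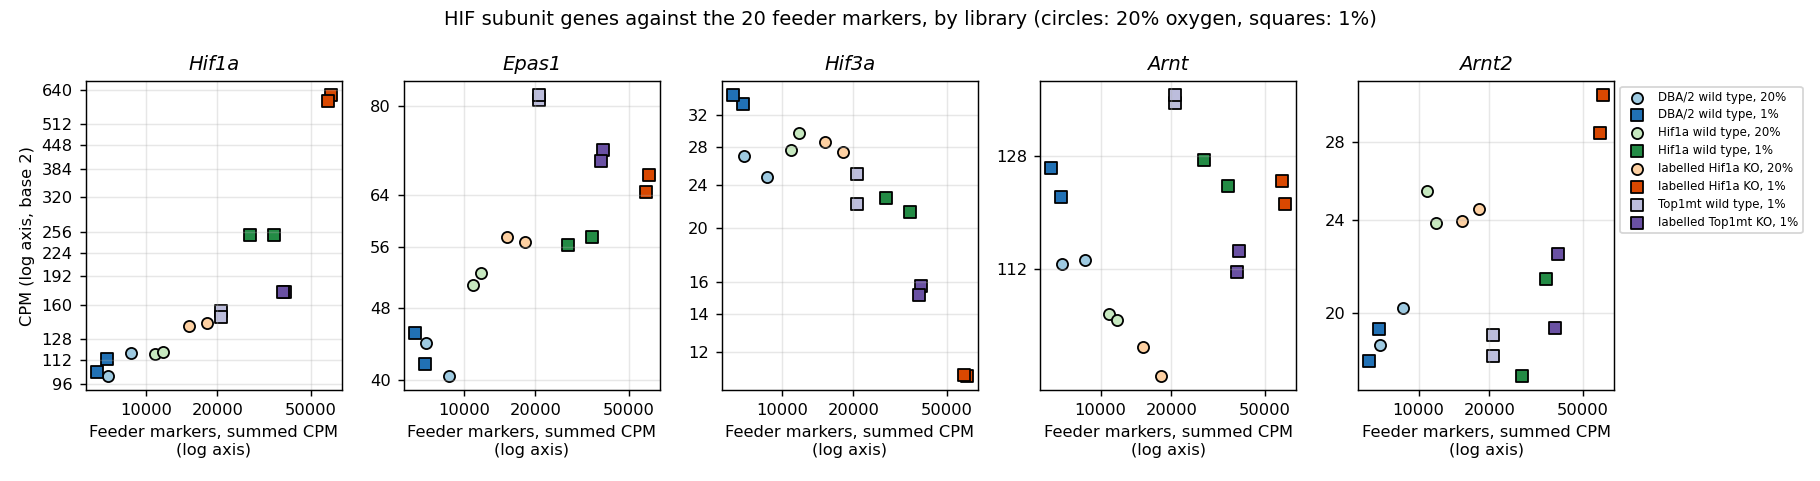
CPM of each HIF subunit gene (vertical axes, log scale, each with its own range) against the summed CPM of the 20 feeder markers (horizontal axis, log scale) in 16 libraries. Circles are 20% and squares 1% oxygen. Hif1a is highest and Hif3a lowest in the 2 libraries labelled Hif1a KO at 1%, which hold 58831 and 60579 CPM of feeder markers.

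The genes most like each member were taken by Pearson's r of log2(CPM + 1) over the 16 libraries. These libraries share line, oxygen and feeder content in pairs, so r is a description only. For Hif1a they were Susd6, Bst1 and Sfrp2 (r = 0.99 each), Sfrp2 being a secreted Wnt modulator. Sfrp2 stood at 24.6 to 28.4 CPM in DBA/2 libraries and 243 and 253 CPM in labelled Hif1a KO at 1%. For Epas1 they were Lrp5, a Wnt co-receptor, Gnptab and Rpn2 (0.96 each). For Hif3a they were Shcbp1, Eri2 and Cinp (0.98 each). For Arnt they were Lgr4 (0.91), an R-spondin receptor, Cpeb3 (0.91) and Aplp2 (0.89), and for Arnt2 Slco2a1 (0.94), a prostaglandin transporter, Slc4a2 (0.93) and Arap1 (0.92). Among members, r was -0.87 for Hif1a with Hif3a, 0.59 for Hif1a with Arnt2 and 0.29 for Hif1a with Arnt.

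The counts of the lists below stand against all genes tested, of which 31.8% were higher and 25.5% lower at 1% oxygen in DBA/2, 18.4% and 34.6% in Hif1a wild type, and 25.2% and 54.7% in labelled Hif1a KO. These shares are of the CPM scale. With median of ratios a larger part of the genes called in labelled Hif1a KO was higher. The shares are therefore no background for the median-of-ratios counts of the lists. The listed genes tied to oxygen sensing and to HIF-alpha turnover or activity, which do not all act in the same way, moved in both directions. Of 16 tested, 8 were higher and 4 lower at 1% in DBA/2 (median 0.31 against 0.04 for all genes), 6 and 4 in Hif1a wild type (0.09 against -0.09), and 6 and 6 in labelled Hif1a KO (0.01 against -0.29). With median-of-ratios scaling the last count was 10 and 3. The called genes named here and for the next lists kept their direction with median of ratios. The prolyl hydroxylase Egln3, itself a HIF target, rose in all 3: from 24.4 and 25.0 to 96.6 and 87.3 CPM in DBA/2 (1.85 ± 0.06), from 18.1 and 18.8 to 77.5 and 85.8 CPM in Hif1a wild type (2.08 ± 0.06) and from 15.8 and 15.0 to 155 CPM in both libraries in labelled Hif1a KO (3.25 ± 0.06, adjusted p = 1.29e-18 by limma). Egln1, the main prolyl hydroxylase, rose by 1.45, 1.06 and 1.37. Egln2, another prolyl hydroxylase, was lower in Hif1a wild type (-0.39) and labelled Hif1a KO (-0.69) and did not pass in DBA/2 (-0.17). Hif1an, the asparagine hydroxylase that blocks coactivator binding, fell by 0.23 at 1% in DBA/2, 0.14 in Hif1a wild type (a call lost with median of ratios) and 0.84 in labelled Hif1a KO, and was lower there than in wild type at 1% (-0.86) and in Top1mt KO (-0.79). Os9, which has been described to aid HIF-1alpha hydroxylation, fell by 0.43 at 1% in DBA/2, while it rose by 0.29 in Hif1a wild type and 1.03 in labelled Hif1a KO, and was higher in labelled Hif1a KO than in wild type at 1% (0.95) and in Top1mt KO (0.86).

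Of 17 cofactor and feedback genes, 8 were higher and 2 lower at 1% in DBA/2 (median 0.07), 7 and 6 in Hif1a wild type (-0.12) and 4 and 11 in labelled Hif1a KO (-0.50; 6 and 9 with median of ratios). The coactivator Crebbp fell by 0.23 in DBA/2, by 0.44 in Hif1a wild type and by 1.17 in labelled Hif1a KO. Pkm, pyruvate kinase, rose by 0.94, 0.63 and 0.99 in DBA/2, Hif1a wild type and labelled Hif1a KO, and Mxi1, a Myc antagonist and HIF target, rose by 1.18, 0.81 and 0.50 in the same order. Bhlhe40, a repressor induced by HIF, rose by 0.68, 0.38 and 1.35. In labelled Hif1a KO the counts of these cofactor genes are near the shares of all genes. Among 14 other bHLH-PAS genes tested, the wider family of the subunits, 4 were higher and 6 lower in DBA/2, 3 and 4 in Hif1a wild type, and 5 and 7 in labelled Hif1a KO (median -0.33; 5 and 3 with median of ratios). Ahr, which also pairs with Arnt, rose by 0.34, 0.51 and 0.99 in DBA/2, Hif1a wild type and labelled Hif1a KO. Others had lower means at 1%. In the same order, Ncoa3 went from 247 to 166, 216 to 201 and 199 to 108 CPM. Arntl went from 69.8 to 56.6, 63.9 to 48.9 and 64.4 to 46.2 CPM. Sim1 was the 1 listed gene of the 15 in the table that was too low to test.

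Most of the classic HIF targets rose at 1% oxygen in each of the 3 comparisons. Of 22 tested, 20 were higher and 1 lower at 1% in DBA/2 (median 1.84), where Hif1a RNA did not pass, 21 and 1 in Hif1a wild type (1.62) and 19 and 1 in labelled Hif1a KO (1.78; 21 and 0 with median of ratios). Between labelled Hif1a KO and wild type, 5 were higher and 2 lower at 20% (median 0.01) and 19 and 2 at 1% (0.69), and in Top1mt KO 17 and 2 (0.49). Of all genes, 12.9%, 28.3% and 25.2% were higher in these 3 comparisons and 9.55%, 49.1% and 33.2% lower. Bnip3, a mitophagy receptor, rose by 2.49 ± 0.06 in DBA/2, 2.58 ± 0.06 in Hif1a wild type and 3.55 ± 0.06 in labelled Hif1a KO. Ero1l, an oxidase of the endoplasmic reticulum, rose by 2.59, 1.51 and 1.79. Of 13 genes often described as leaning to HIF-2alpha, 1 was higher and 6 lower in DBA/2 (median -0.06), 4 and 6 in Hif1a wild type (-0.15) and 6 and 5 in labelled Hif1a KO (0.07; 7 and 3 with median of ratios). Lox, a collagen crosslinking enzyme, rose by 2.05, 2.20 and 2.28, while Pou5f1, a germ line and pluripotency factor, fell by 0.86, 1.12 and 1.50. Pou5f1 was low in these groups, with means going from 3.79 to 1.64, 5.65 to 2.06 and 4.25 to 0.86 CPM. Lox is also made by fibroblasts.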

How the data were processed

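RNA of 16 libraries was sequenced, in 8 groups of 2. The deposited table gives CPM values (counts scaled to 1000000 reads on protein-coding genes a library), computed by the authors. Per the submitters' processing notes, cutadapt 1.16, STAR 2.6.0c, HTSeq 0.11.2, DESeq2 1.22.2 and the build mm10 were used, with no role given for each. Neither the annotation nor the strand setting is stated. The deposited CPM values were whole multiples of 1 read (100% of them in every library, within 0.01 read), so reads were recovered from them. The depth was 11942104 to 25659895 reads a library, so a count of 0 allows up to 3 reads, which covers counting error only.

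The test was limma 3.58.1 (R 4.3.3) with an empirical Bayes trend on log2(CPM + 1). All 16 libraries entered 1 fit with a mean per group, genes were kept that reached 1 CPM in 2 or more libraries (14841 of 21924), and p-values were two-sided and adjusted by Benjamini-Hochberg over all genes tested, with a threshold of 0.05. Fold changes are of CPM + 1, which understates changes of low genes. Nothing says that replicates came from separate animals or cultures, so p-values measure only the spread between these libraries, which may be technical. The 2 libraries of each group differed by more than sampling noise (chi-square per gene of 1.79 to 7.60). Several comparisons share libraries. Alternatives were a pseudocount of 0.1 or 0.5, no filter, median-of-ratios scaling, edgeR 4.0.16 and DESeq2 1.42.0 on recovered reads, a replicate block, a fit of the compared lines alone, each library left out, and the longest transcript as gene length. The model was also tested on simulated data.

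The members, 5 gene lists and 6 marker lists were chosen with earlier results of these data known. Egln3 and Cited2 are each in 2 lists, and Kdr and Tek are both HIF-2alpha-leaning and endothelial. Beside the members, up to 4 genes with the smallest adjusted p in a comparison are named per list, any whose level bears on a result, and the 3 genes most like each member. Of the gene symbols, 21894 matched the GENCODE M21 annotation once and 30 more than once.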

Additional observations from a re-analysis of the deposited data

Results flagged for a closer look

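For 3 of the 5 genes the oxygen response differed between groups by a test of the difference itself. With groups of 2 libraries, no library could be tested for standing apart from its group. The response of Hif1a was larger by 1.01 on the log2 scale in libraries labelled Hif1a KO (2.10) than in Hif1a wild type (1.09), and larger by 1.10 in Hif1a wild type than in DBA/2 (-0.01). The response of Hif3a differed by -0.93 between labelled Hif1a KO (-1.29) and wild type (-0.37), and by -0.76 between Hif1a wild type and DBA/2 (0.39). The response of Arnt2 differed by 0.60 between labelled Hif1a KO (0.28) and wild type (-0.33). All of these are limma estimates over 2 libraries a group that passed at an adjusted p of 0.05. The summed feeder markers differed between the same groups, and their part in these differences was not tested.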

How the results depend on the processing

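Over the alternatives other than leaving out a library, 441 values kept their direction and side of the threshold, 19 passed newly, 11 no longer passed and 9 reversed, and the cause was not tested. Members called with oxygen in DBA/2 went from 2 to 1 with median-of-ratios scaling, edgeR and DESeq2. For the response of labelled Hif1a KO minus wild type they went from 3 to 5 with the same alternatives, and for that of Hif1a wild type minus DBA/2 from 2 to 4 with median of ratios and edgeR. The shares of all genes called with these alternatives are not given, so these counts are not read as a result about the family.

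The directions that reversed were of values that did not pass on the CPM scale. Epas1 with oxygen in DBA/2 was -0.00039 with edgeR. Arnt for labelled Hif1a KO against wild type at 1% was 0.25 with median of ratios, 0.22 with edgeR and 0.25 with DESeq2. Arnt2 for Top1mt wild type against DBA/2 was 0.063, 0.071 and 0.067 with these. With the replicate block, Arnt2 was -0.012 for Hif1a wild type against DBA/2 at 1% and -0.0012 against Top1mt wild type.

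With each library left out in turn, 250 values kept their call, 2 passed newly, 15 no longer passed and 13 reversed. Members called ranged from 1 to 2 for oxygen in DBA/2 and from 1 to 3 for Hif1a wild type against DBA/2 at 20%. Hif1a ranged from -0.12 to 0.10 for oxygen in DBA/2, from 0.18 to 0.23 for Top1mt KO, and from -0.0039 to 0.21 for Hif1a wild type against DBA/2 at 20%. Epas1 ranged from -0.020 to 0.098 for oxygen in DBA/2. For labelled Hif1a KO against wild type at 20%, Hif3a ranged from -0.080 to 0.017 and Arnt2 from -0.066 to 0.023. For Hif1a wild type against DBA/2 at 1%, Arnt ranged from -0.0083 to 0.042 and Arnt2 from -0.085 to 0.18. Arnt2 ranged from -0.045 to 0.041 for Top1mt wild type against DBA/2 and from -0.082 to 0.18 for Hif1a wild type against Top1mt wild type. Over all genes, the 3329 calls for labelled Hif1a KO against wild type at 20% fell to 1508 and 1960 without the first or second wild type library and to 1574 without the second labelled KO library.

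Deviations of same-numbered libraries from their group means had an r across genes of -0.06 to 0.15, highest for oxygen in DBA/2. With 2 libraries a group, this cannot tell whether same-numbered libraries share a culture. With the replicate block, members called for Hif1a wild type against DBA/2 at 20% went from 2 to 1, and calls over all genes moved by a ratio of 0.868 to 1.14. With the longest transcript as gene length, the Hif1a share was 36.1% and 33.8% in DBA/2 at 20% and 1%, 37.0% and 53.6% in Hif1a wild type, 41.6% and 73.3% in labelled Hif1a KO, 37.5% in Top1mt wild type and 45.1% in Top1mt KO.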
